A study of Mus musculus with 48 samples.

Results

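The collagen genes are the 44 protein-coding genes whose mouse symbol is Col, a number, the letter a and a number, from Col1a1 to Col28a1, among 48709 genes counted in every library. The rule that selects them uses the symbol alone, through the GENCODE M21 names of the Ensembl identifiers, and no measured value. It was set with earlier results of these data known. By textbook class they were 11 fibrillar chains, 6 chains of the basement membrane network (Col4a1 to Col4a6), 3 short-chain network chains (Col8a1, Col8a2, Col10a1), 8 beaded filament and anchoring chains, 9 fibril-associated chains (FACIT), 2 multiplexins (Col15a1, Col18a1), 4 transmembrane chains (Col13a1, Col17a1, Col23a1, Col25a1) and Col26a1.

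Collagens are triple helices of 3 chains that are wound together in the secretory pathway and laid down outside the cell. Neurons and glia make few of the fibrillar kind, and in brain tissue these come mainly from the fibroblasts of the meninges and of vessel walls. Type IV collagen forms the sheet of the vascular basement membrane, and some FACIT and transmembrane chains are made by neurons, among them Col25a1, the precursor of a peptide found in amyloid plaques. Type I and type III transcripts are for that reason read as signs of meninges in a dissected piece of brain.

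Polyadenylated RNA of whole tissue from 46 mice of strain C57BL/6J was sequenced in 48 runs, and 2 mice had 2 runs, which were summed. The series asks what loss of Formin 2 (Fmn2), an actin nucleator, does to the dentate gyrus (DG) of the hippocampus with age and with an Alzheimer's disease transgene. The DG groups were Fmn2+/+ at 3 months (5 mice), Fmn2-/- at 3 months (5 mice), Fmn2+/+ at 8 months (3 mice) and Fmn2-/- at 8 months (5 mice). A cross of Fmn2-/- mice with the APPPS1-21 line (APP), which expresses mutant human amyloid precursor protein and presenilin in neurons from a Thy1 promoter, gave groups labelled Fmn2+/+ APP (9 mice) and Fmn2-/- APP (7 mice) at 3 months. APP (6 mice) and wild-type mice (6 mice) labelled 4 months old carried DG as tissue but PFC, the usual short form of prefrontal cortex, in their titles, and they are called titled PFC below. Each mouse gave 1 library, and in this bulk RNA fewer cells of a type and less RNA per cell cannot be told apart.

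Total counts per mouse ran from 6818809 to 43921030, with the lowest medians in the 8-month groups (8381080 and 9943020). Levels below are CPM, counts scaled to library size after TMM normalization over the 46 libraries, and fold changes come from edgeR with Benjamini-Hochberg adjusted p. Fmn2 was at 93.2 to 113 CPM in the 3-month Fmn2+/+ libraries and at 23 to 28.1 in the Fmn2-/- libraries, and at 8 months at 75.5 to 103.3 and at 20.9 to 27.3. In the cross it went against the labels, with 19.2 to 24.2 CPM in the 9 libraries labelled Fmn2+/+ APP and 84.2 to 103.7 in the 7 labelled Fmn2-/- APP, so the direction of every cross value is that of the labels and not of the measured gene. Granule cell markers summed to 733 to 1462 CPM in the 34 DG libraries and to 194 to 299 in the titled PFC libraries, and cortical neuron markers to 123 to 372 and to 627 to 713. The titled PFC libraries therefore carried the cortical and not the granule cell profile.

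Some libraries stood apart in 2 lists of markers for cells from outside the DG. The 14 markers of meningeal fibroblasts (Dcn, Lum, Igf2, Fmod and others, no collagen among them) summed to 128 to 672 CPM in DG libraries, and the highest library of a DG group held 1.71 to 4.78 times the lowest. The 12 choroid plexus markers, with Ttr, the thyroid hormone carrier of that epithelium, foremost, summed to 28.7 to 599 CPM in DG libraries apart from 3. These were at 4358 (3-month Fmn2-/- replicate 4), 9578 and 6232 CPM (labelled Fmn2+/+ APP replicates 4 and 5), and the titled PFC libraries were at 3.9 to 7.5. Replicates 2 and 3 of the 8-month Fmn2-/- group differed by a chi-square of 1.62 per degree of freedom over genes, less than the 1.72 and 2.15 between both runs of 1 mouse, while all other pairs of mice differed by 3.50 or more. They were kept as 2 mice. Where a call on a collagen gene, or on a gene that processes, binds or degrades collagen, was lost with them summed, this is said.

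Per exon length, the transmembrane chain Col25a1 had the highest mean in the 4 DG groups of 3 and 8 months, and the beaded filament chain Col6a1 in both titled PFC groups and in the group labelled Fmn2+/+ APP (18.1 against 10.9 CPM per kb for Col25a1). In the group labelled Fmn2-/- APP the pair was level (9.96 and 9.99), and in 8-month Fmn2+/+ mice Col25a1 was at 14.4 and Col6a1 at 13.2. In 3-month Fmn2+/+ mice Col25a1 was at 15.7 ± 1.5 CPM per kb (SD, n = 5). Col6a1 followed at 7.39 ± 2.52, Col4a2 at 4.90 ± 0.72 and Col4a1 at 4.45 ± 0.74. The type IV pair lay within its spread, whereas Col25a1 lay clear of Col6a1. Below them came Col19a1 and Col23a1 at 1.95 ± 0.30 and 1.94 ± 0.59, Col9a3 at 1.81 ± 0.26 and Col11a2 at 1.73 ± 0.24, 4 neighbours whose spreads overlapped. In titled PFC wild-type mice the order was Col6a1 at 39.6 ± 6.0 CPM per kb (SD, n = 6), Col4a2 at 15.3 ± 1.6, Col4a1 at 9.38 ± 0.88, Col5a1 at 5.68 ± 0.98, Col16a1 at 5.19 ± 0.53 and Col25a1 at 4.63 ± 0.42. The lengths are unions of annotated exons, so a gene with many alternative exons is placed too low.

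**Figure D1:**
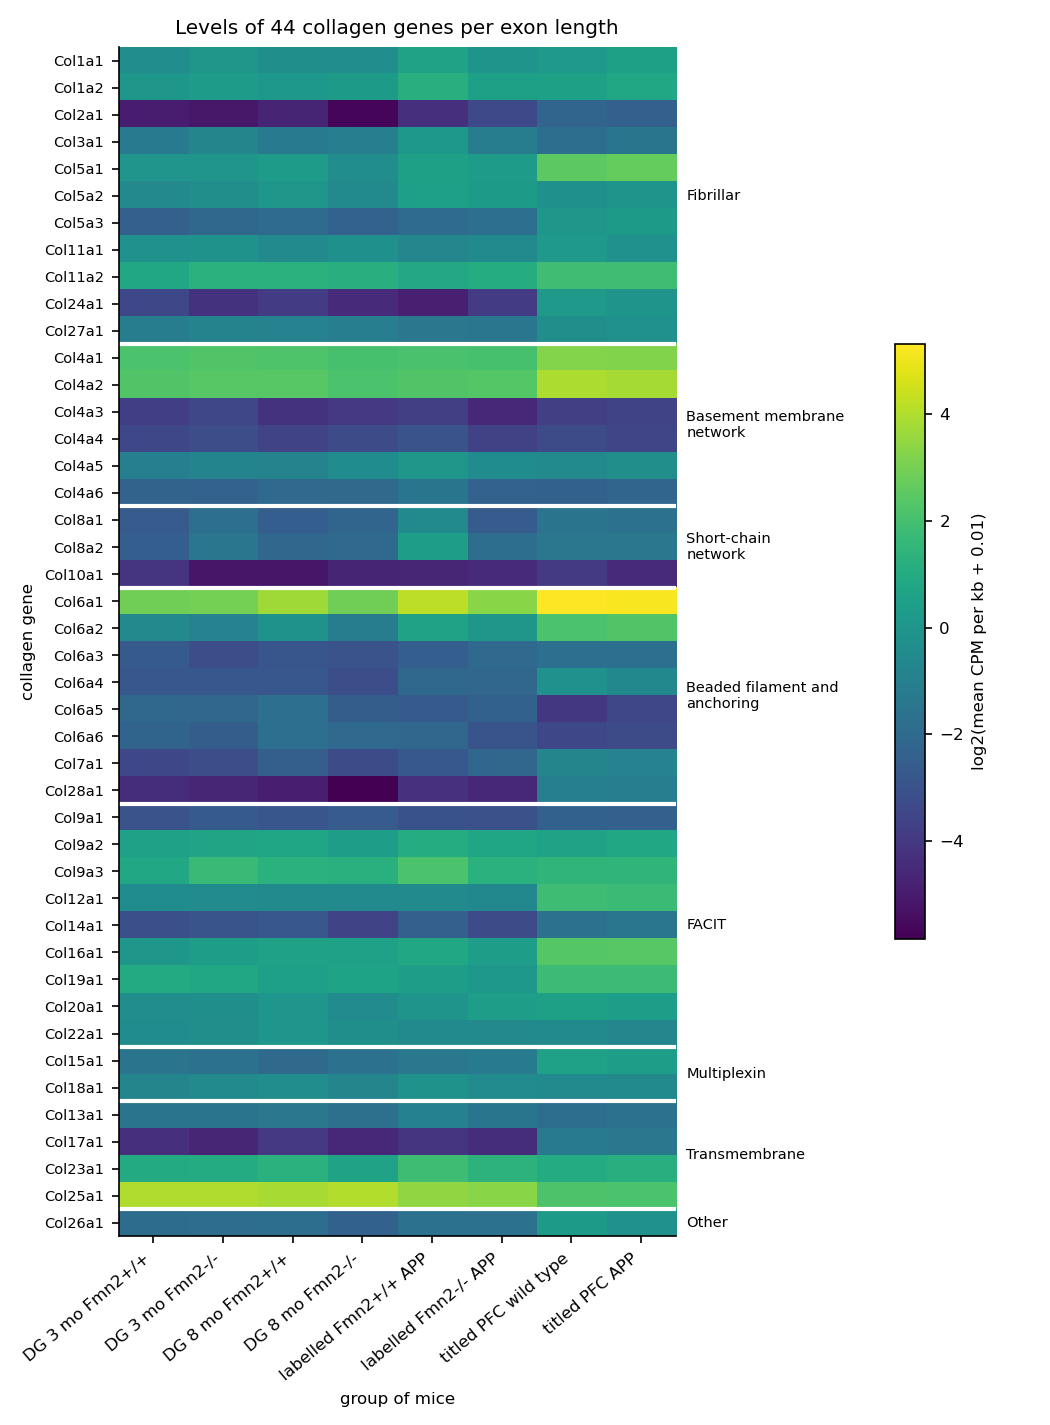
Mean level of the 44 collagen genes (rows, by class) in the 8 groups (columns), as log2 of the group mean CPM per kb of exon plus 0.01. Col25a1 is brightest in the 4 DG groups of 3 and 8 months, at 15.7 CPM per kb in 3-month Fmn2+/+ mice, and Col6a1 in the group labelled Fmn2+/+ APP, at 18.1, and in titled PFC wild-type mice, at 39.6.

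Collagen reads together made up 371 to 496 CPM (of the total count, without TMM) in 3-month Fmn2+/+ DG libraries and 761 to 924 CPM in titled PFC wild-type libraries, and these ranges did not overlap. Transmembrane chains gave 46.3% of collagen reads in the former, mostly from Col25a1, and 9.3% in the latter. Fibrillar chains gave 14.5% and 18.7%. Group means reached 1 CPM for 33 to 38 of the 44 genes. Col10a1, the collagen of growth plate cartilage, had 0 to 9 counts in every library and was not tested in any comparison.

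Group means of a few other chains show the range over the 8 groups. Col11a1, a fibrillar chain, had group means of 7.97 to 11.5 CPM in the 6 DG groups and of 10.9 ± 2.1 and 14.2 ± 3.1 (SD, n = 6 each) in titled PFC APP and wild-type mice. Col18a1 had means of 4.08 to 6.18 CPM in all 8 groups. Col23a1, a transmembrane chain, had means of 8.64 to 20.6 CPM in the DG groups, the highest in the group labelled Fmn2+/+ APP (20.6 ± 6.4, SD, n = 9). Col19a1 had means of 7.41 to 13.4 CPM in the DG groups and of 23.7 in both titled PFC groups, above every DG mean.

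The genes also differed in how much they varied among mice of 1 group. Col25a1 had the lowest median coefficient of variation over the 8 groups, 9.5%, followed by Col16a1 with 16% and Col4a1 with 16.3%. Col1a2 stood at 37.5%, Col3a1 at 53.7% and Col8a2 at 56.3%. Only the low-count genes Col24a1, Col10a1 and Col28a1 varied more than Col8a2. The 4 promoter stretches below belong to Col25a1 and to 3 genes whose values are set against marker lists further on, Col3a1, Col8a1 and Col8a2. Each stretch ends at or 1 base before the RefSeq start site, lies outside every GENCODE M21 exon, and is written 5′ to 3′ on the gene's strand (RefSeq, GRCm38.p6). That of Col25a1 lies within the span of its GENCODE M21 gene, which starts at chr3:130131501. Its RefSeq start site is thus internal to that gene. Capitals mark matches on either strand to the TATA box (TATAAA), to the CAAT box (CCAAT) or to the GC box (GGGCGG).

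Col3a1, chr1:45311288-45311537, plus strand: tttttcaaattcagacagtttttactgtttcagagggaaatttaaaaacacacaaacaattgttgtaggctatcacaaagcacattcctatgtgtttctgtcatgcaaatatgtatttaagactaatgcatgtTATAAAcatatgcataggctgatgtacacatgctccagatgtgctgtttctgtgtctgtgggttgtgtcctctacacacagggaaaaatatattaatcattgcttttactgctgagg
Col8a1, chr16:57754738-57754987, minus strand: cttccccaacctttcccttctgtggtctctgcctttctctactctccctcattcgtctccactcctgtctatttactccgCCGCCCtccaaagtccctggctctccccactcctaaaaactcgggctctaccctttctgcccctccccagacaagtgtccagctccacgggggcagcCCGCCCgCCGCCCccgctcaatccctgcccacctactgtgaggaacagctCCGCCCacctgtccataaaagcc
Col8a2, chr4:126286544-126286792, plus strand: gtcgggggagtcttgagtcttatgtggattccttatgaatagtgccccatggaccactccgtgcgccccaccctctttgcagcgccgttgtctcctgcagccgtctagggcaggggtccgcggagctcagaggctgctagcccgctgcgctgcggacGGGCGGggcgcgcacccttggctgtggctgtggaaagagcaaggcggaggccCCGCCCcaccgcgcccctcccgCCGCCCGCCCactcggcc
Col25a1, chr3:130180595-130180844, plus strand: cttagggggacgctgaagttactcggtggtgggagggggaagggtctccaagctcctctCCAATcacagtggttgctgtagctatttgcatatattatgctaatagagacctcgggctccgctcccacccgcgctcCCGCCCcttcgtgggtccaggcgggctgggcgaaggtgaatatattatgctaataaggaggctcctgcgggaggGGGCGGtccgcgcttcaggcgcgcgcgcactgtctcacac

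The Col3a1 stretch had 35.2% G and C and held TATAAA, which starts 117 bases before the start site. The Col8a1 and Col8a2 stretches had 60.8% and 69.9% G and C and held GGGCGG or its complement 4 times each, the last 2 matches in Col8a2 sharing bases. The Col25a1 stretch, at 60.4%, held CCAAT once and GGGCGG or its complement 2 times. Among 35 collagen genes with a RefSeq window, 5 (14.3%) held TATAAA in the 250 bases before the start, against 14.3% of 27025 genes. CCAAT was in 13 (37.1%) against 37.5%, and GGGCGG in 21 (60%) against 35.4%. The 27025 were not restricted to protein-coding genes, which the 35 all are. Matches are letters only and were not tied to binding here. The type IV partners Col4a1 and Col4a2 lie head to head on chromosome 8, on the minus and the plus strand, with start sites 21 bases apart, so that their transcripts overlap by 22 bases. The library kit named in the labels does not mark strand, so reads in that overlap cannot be assigned.

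Across mice, type I and type III collagen followed the meningeal fibroblast markers. In the 18 mice of the 3- and 8-month experiment Col1a2, a chain of type I collagen, had Pearson r = 0.97 and Spearman rho = 0.95 with the mean log2 level of the marker list, both taken as differences from the group mean. The two-sided permutation test within groups gave p = 1e-05 for each, the smallest that 100000 permutations can give, and adjusted p of 0.00012 and 0.00016 over 81 relations. In the cross r was 0.94 and rho 0.89 over 16 mice (permutation p = 1e-05 for both, adjusted p = 0.00012 and 0.00016). In the titled PFC mice r was 0.88 and rho 0.94 over 12 mice (permutation p = 0.00051 and 8e-05, adjusted p = 0.0021 and 0.00066). Without the 2 mice farthest from the median marker score, r was 0.95, 0.91 and 0.83. Col3a1, the chain of type III collagen, gave r of 0.98, 0.87 and 0.90 and rho of 0.98, 0.87 and 0.79 in the same order (adjusted permutation p for r = 0.00012, 0.00087 and 0.0038, for rho 0.00016, 0.00066 and 0.021). The relation was present within each of the 3 experiments.

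The values per mouse show the size of this spread. Among 3-month Fmn2-/- mice Col1a2 was at 15.3, 26.2, 11, 3.45 and 19.6 CPM, and the same libraries held 332, 538, 391, 145 and 320 CPM of meningeal markers. Among the 8-month Fmn2+/+ mice it was at 6.65, 3.65 and 29.3 CPM beside 265, 151 and 603 CPM of markers. In the group labelled Fmn2-/- APP Col1a2 ran from 6.61 to 52.1 CPM with a median of 10.4, and replicate 6, the highest, had the most marker RNA of its group at 614 CPM. Mice low and high in type I collagen stood within the same groups. Col1a2 also followed the mural list (pericyte and smooth muscle genes) in the 3- and 8-month experiment and in the cross (r = 0.90 and 0.84, rho = 0.79 for both, adjusted permutation p for r = 0.00093 and 0.0016, for rho 0.011 and 0.0038). In titled PFC mice r with that list was 0.06 and rho 0.11 (adjusted permutation p = 0.93 and 0.9). With the endothelial list Col1a2 had r of 0.76, 0.82 and 0.15 and rho of 0.65, 0.80 and -0.03 (adjusted permutation p for r = 0.064, 0.0019 and 0.84, for rho 0.064, 0.00081 and 0.99). Col3a1 had r of 0.82, 0.79 and 0.05 and rho of 0.76, 0.79 and -0.14 with that list (adjusted permutation p for r = 0.011, 0.004 and 0.95, for rho 0.011, 0.0047 and 0.9). The meningeal list was thus not the only one these chains followed in the DG.

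For Col4a1, the type IV chain set against the marker lists, no such relation passed with the meningeal or endothelial list. It had r of 0.40, 0.39 and -0.06 with the meningeal list in the 3 experiments and of 0.28, 0.43 and 0.10 with the endothelial list. With the mural list r was 0.32, 0.37 and 0.19, and with the choroid plexus list -0.12, 0.12 and 0.62. None had an adjusted permutation p under 0.05. Without the 2 farthest mice r was 0.54 with the mural list in the first experiment (unadjusted permutation p = 0.028). In titled PFC mice r with the choroid plexus list was then 0.81 (unadjusted permutation p = 0.0077). Col4a1 followed its own partner chain, with r = 0.93, 0.91 and 0.87 between Col4a1 and Col4a2 (adjusted permutation p = 0.00012, 0.00012 and 0.0028) and rho of 0.89, 0.92 and 0.80. The type I partners Col1a1 and Col1a2 gave 0.95, 0.94 and 0.89 (adjusted permutation p = 0.00012, 0.00012 and 0.0027) with rho of 0.96, 0.94 and 0.83. In the type V partners Col5a1 and Col5a2 r was 0.74, 0.79 and 0.80 (adjusted permutation p = 0.013, 0.0019 and 0.0075) and rho 0.59, 0.71 and 0.73 (adjusted permutation p = 0.082, 0.011 and 0.033), and without the 2 farthest mice r was 0.66 in titled PFC mice (permutation p = 0.055). The type VIII partners Col8a1 and Col8a2 gave r of 0.78, 0.97 and -0.14 (adjusted permutation p = 0.019, 0.0002 and 0.9) and rho of 0.62, 0.89 and -0.01, and without the 2 farthest mice r was 0.56, 0.89 and -0.11 (permutation p = 0.081 in the first). Of the 5 pairs of partner chains tested, those of types I and IV thus passed for r in all 3 experiments and did not rest on 2 mice. The type VI partners Col6a1 and Col6a2 gave 0.78, 0.86 and 0.71 (adjusted permutation p = 0.04, 0.00087 and 0.039) with rho of 0.70, 0.89 and 0.67, but without the 2 farthest mice r was 0.59 and 0.33 in the first and last (permutation p = 0.092 and 0.42), so both rest on those mice. Col25a1 had r of -0.40, -0.09 and -0.34 with the meningeal list, none past the threshold.

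Over all 46 mice, each taken from its group mean, the 10 genes outside the collagens most like Col1a2 among 14752 genes of at least 1 CPM were Fmod, Aebp1, Slc6a20a, Slc22a6, Aldh1a2, Ptgds, Cped1, Pcolce, Mrc2 and Itih2, with r from 0.92 to 0.96. Fmod and Aldh1a2 are on the meningeal list, and Pcolce enhances the cleavage of procollagen. Among collagens Col3a1 and Col1a1 came closest (0.94 and 0.93), then Col4a6 (0.88) and Col4a5 (0.81), type IV chains that pair with each other. The 10 genes most like Col4a1 were Tmem86b, Arhgef1, Pxn, Agrn, Zgpat, Rgs11, Fam193b, Ankzf1, Slc2a4rg-ps and Ikbkb, with r from 0.80 to 0.86. Agrn encodes agrin, another basement membrane component. The median exon GC content of these 10 was 55.3%, against 49.6% over the 14752 genes and 57.7% for Col4a1 itself, and its part in the likeness was not tested. These coefficients share depth and library composition and are given without a p.

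Type VIII collagen and Col9a3 were high in 3 libraries where choroid plexus markers were high. Col8a1 and Col8a2 encode the network collagen of Descemet's membrane and of vessel walls, and Col9a3 is a FACIT chain known from cartilage. Col8a2 was at 5.34 CPM in 3-month Fmn2-/- replicate 4 and at 0.444 to 1.29 in the other 4 mice of that group. In the group labelled Fmn2+/+ APP it was at 29.5 CPM in replicate 4 and 11.8 in replicate 5, with a median of 1.94 over the 9 mice. Col8a1 stood at 25.8 and 11.5 CPM and Col9a3 at 49.2 and 32.5 CPM in those 2 cross libraries, whose Ttr was at 8934 and 5868 CPM. The 3 libraries with most Ttr were also those with most Col8a1, Col8a2 and Col9a3.

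Because these libraries form a cluster of their own, the coefficient is given without the 2 mice farthest from the median marker score. Col9a3 then had r = 0.85 and rho = 0.83 with the choroid plexus list over 16 mice of the 3- and 8-month experiment (permutation p = 0.0027 and 0.0026). In the cross it had r = 0.72 and rho = 0.66 over 14 mice (permutation p = 0.087 and 0.22), so there the relation rested on those 2 mice. For Col8a1 in the cross r was 0.68 and rho 0.72 (permutation p = 0.0067 and 0.0085), and for Col8a2 they were 0.67 and 0.64 (permutation p = 0.026 and 0.061). In the 3- and 8-month experiment Col8a2 had r = 0.77 and rho = 0.64 (permutation p = 0.026 and 0.047), and Col8a1 had r = 0.46 and rho = 0.43 (permutation p = 0.16 and 0.24), which did not pass. These p-values are not adjusted. In titled PFC mice Col8a1 had r = 0.48 and rho = 0.40 with the list (adjusted permutation p = 0.31 and 0.44), and Col8a2 had r = 0.03 and rho = 0.21 (adjusted permutation p = 0.96 and 0.77). There, with Ttr at 0 to 2.18 CPM, r between Col9a3 and the list was 0.02 and rho 0.08 over 12 mice (adjusted permutation p = 0.96 and 0.9), and Col9a3 was at 9.12 to 12 CPM in the wild-type mice there.

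**Figure D2:**
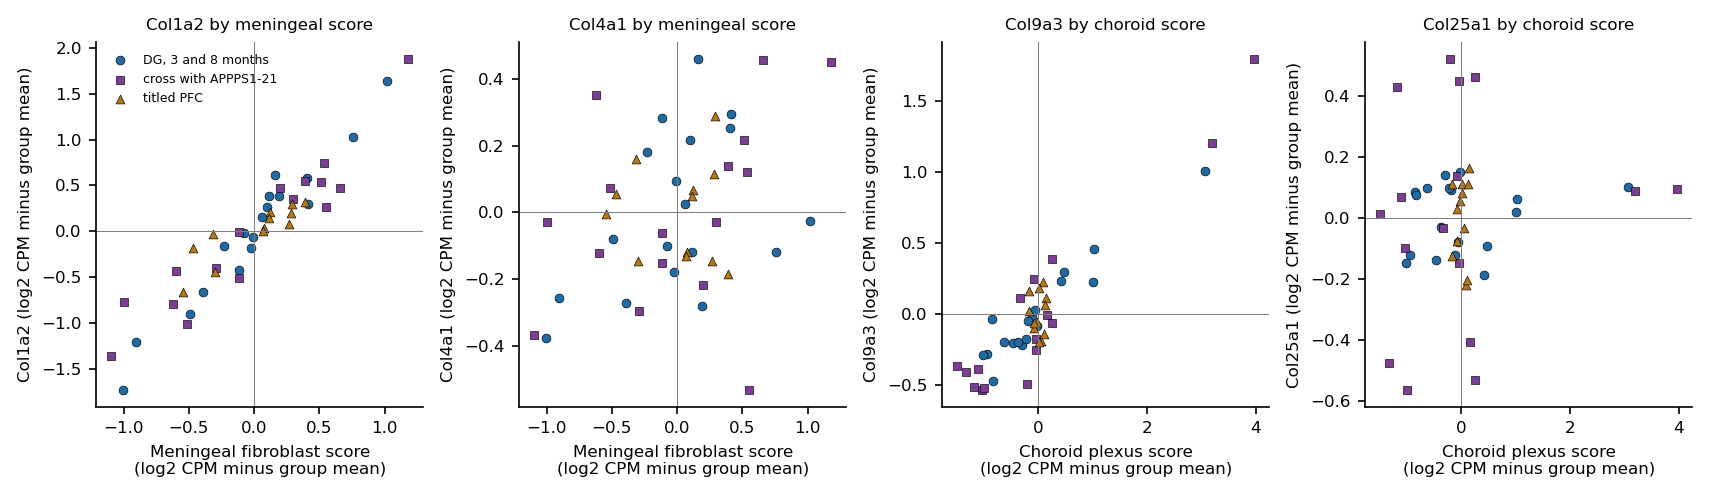
Log2 CPM of 4 collagen genes (vertical, difference from the group mean) against the mean log2 CPM of a marker list (horizontal, difference from the group mean). Each point is 1 of 46 mice, by experiment. Col1a2 rises with the meningeal score in all 3 experiments (r = 0.97, 0.94 and 0.88), Col4a1 has r of 0.40, 0.39 and -0.06, and Col9a3 is highest in the 3 libraries with most choroid plexus RNA.

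**Figure D3:**
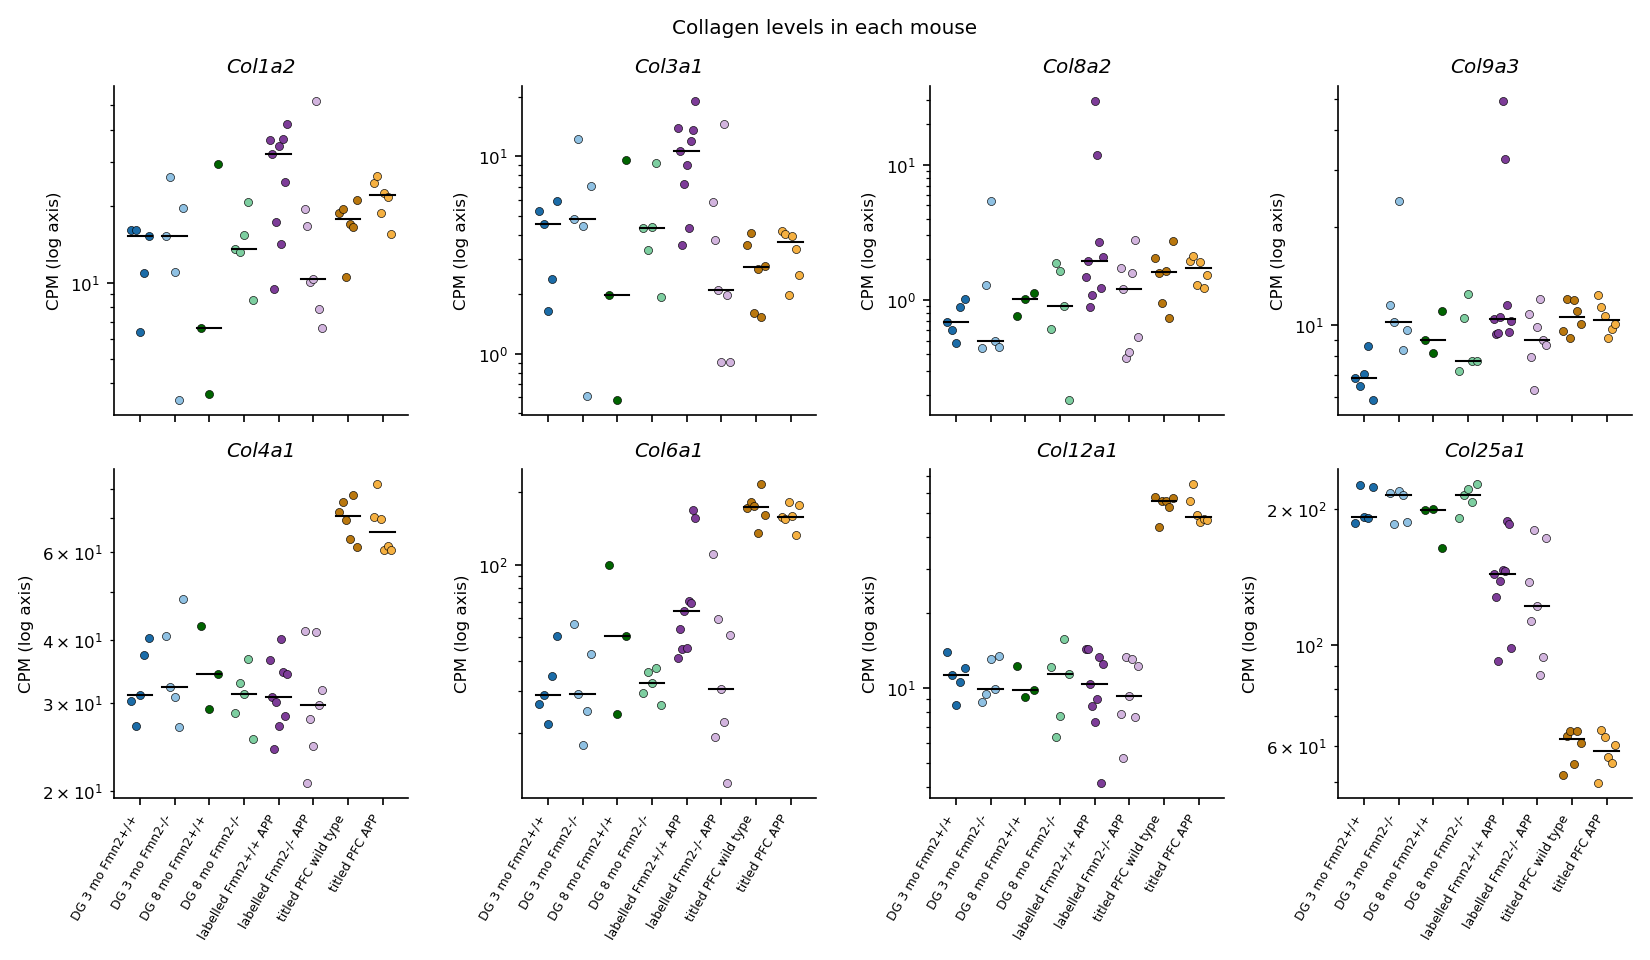
CPM (log axis) of 8 collagen genes in each mouse, by group, with a bar at the group median. Col1a2 and Col3a1 spread widely within groups, Col8a2 and Col9a3 are high in a few libraries, and in Col4a1, Col12a1 and Col25a1 the titled PFC mice do not overlap the DG mice, while 2 mice labelled Fmn2+/+ APP reach the titled PFC range in Col6a1.

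The first comparison asks whether loss of Fmn2 changed collagen genes in the DG at 3 months, and no collagen gene passed. Of 40 tested, 0 were called by edgeR (adjusted p under 0.05, and a log2 fold change of 0.25 or more in either direction), where 0.0301% of the 16630 genes tested were. DESeq2 gave an adjusted p to only 16 collagen genes and called 0 of them, against 0.858% of 11187 genes. By edgeR 4 of the 40 had an unadjusted p under 0.05, or 10%, near the 10.5% of all genes. The median log2 fold change was 0.10 (27 higher, 13 lower), against 0.00 over all genes. Col2a1, Col10a1, Col17a1 and Col28a1 were too low to be tested.

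The smallest p belonged to Col9a3. It was at 6.85, 6.49, 7.04, 8.60 and 5.86 CPM in Fmn2+/+ mice and at 11.5, 10.2, 24.2, 8.36 and 9.64 in Fmn2-/- mice. The lowest Fmn2-/- value fell below the highest Fmn2+/+ value, and the others lay above all of them. The log2 fold change was 0.85 ± 0.26 (SE, edgeR adjusted p = 0.30), and 0.48 without the library rich in Ttr (adjusted p = 0.34, an alternative chosen after seeing the data). The 7 choroid plexus markers tested had a median log2 fold change of 2.48, with 5 at an unadjusted p under 0.05 and 0 called. This came from 1 library: the summed list was at 4358 CPM in Fmn2-/- replicate 4. The other 4 Fmn2-/- mice were at 40.6 to 76.1 CPM and the Fmn2+/+ mice at 28.7 to 70.2. Col8a2, Col24a1 and Col8a1 had the largest differences (1.06 ± 0.69, -0.89 ± 0.56 and 0.86 ± 0.64), and those of Col8a2 and Col8a1 became -0.21 and -0.16 without that library. Col25a1 stood at 186 to 225 CPM in Fmn2+/+ and 185 to 219 in Fmn2-/- mice (log2 fold change -0.02 ± 0.07, edgeR adjusted p = 0.95).

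At 8 months 0 of 35 collagen genes were called, against 1.13% of 14665 genes. DESeq2 called 0 of the 23 to which it gave an adjusted p, against 5.37% of genes. By edgeR 8 of the 35 had an unadjusted p under 0.05 (22.9%, against 23.3% of all genes). The median log2 fold change was -0.21 (14 higher, 21 lower), against 0.01 over all genes, and -0.03 without Fmn2+/+ replicate 3, and 9 collagen genes were too low to be tested. The 7 beaded filament and anchoring chains tested were all below 0, though none was called. Col6a2, which joins Col6a1 in type VI collagen, had the smallest p, with 12.8, 2.04 and 8.33 CPM in the 3 Fmn2+/+ mice and 3.60, 3.13, 3.73, 4.03 and 3.59 in the 5 Fmn2-/- mice (log2 fold change -1.15 ± 0.34, edgeR adjusted p = 0.095). Col6a1 was at 99.6, 24 and 50.4 CPM and at 29.4, 35.8, 32.2, 37.2 and 26.1 (log2 fold change -0.83 ± 0.28, edgeR adjusted p = 0.12). Col7a1 and Col6a5 had differences of -0.87 ± 0.27 and -0.84 ± 0.28.

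In Col6a1 and Col6a2 the Fmn2-/- mice lay between Fmn2+/+ replicate 2, the lowest of the 8, and the other Fmn2+/+ mice. The same replicate had the least meningeal marker RNA of its group, 151 CPM against 265 and 603. Without it, 9 collagen genes were called, Col25a1 higher and Col5a1, Col5a2, Col6a1, Col6a2, Col7a1, Col20a1, Col23a1 and Col26a1 lower, or 23.7% of 38, while the count over all genes rose from 166 to 3087 (20.6%). Without Fmn2+/+ replicate 3 Col1a2 alone was called, or 2.78% of 36, beside 160 genes in all (1.07%). Without Fmn2+/+ replicate 1, 0 of 38 were called, beside 4 of 14928 genes in all. Replicate 1 had the highest Col6a1 and Col6a2 of the 8 mice, 99.6 and 12.8 CPM. It was the only 8-month library on lane 6, and its total of 43921030 counts was the highest of any mouse. The collagen calls at this age thus differed with which of the 3 Fmn2+/+ mice were kept. Leaving out any 1 Fmn2-/- mouse gave 0 collagen calls, beside 4 to 10 genes in all. Col25a1 itself was at 198, 199 and 164 CPM and at 191, 214, 221, 207 and 227 (log2 fold change 0.24 ± 0.09, edgeR adjusted p = 0.14). With the meningeal score as a covariate, chosen after seeing the data, 8 were called (22.9% of 35), Col1a2, Col3a1 and Col25a1 higher and Col5a1, Col6a1, Col6a2, Col7a1 and Col23a1 lower, beside 2109 genes in all (14.4%).

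Of the genes that process, bind or degrade collagen, none of 28, 7 and 9 tested was called at 3 months, and the smallest p in each list were those of Pcolce2 and Loxl3, Ddr1 and Ddr2, and Mmp15 and Mmp16. At 8 months Timp3, an inhibitor of matrix metalloproteinases, was higher in Fmn2-/- mice (log2 fold change 0.50 ± 0.08, edgeR adjusted p = 0.029) and was called alone among 9 degradation genes. The value was 0.50 with lane as a covariate, 0.48 with replicates 2 and 3 summed and 0.48 without the libraries rich in Ttr, where the call was lost (edgeR adjusted p = 0.26, 0.077 and 0.23), as it was on leaving out any of 5 mice in turn. None of 26 processing and 7 receptor genes was called there (smallest p: Adamts3 and Ppib, edgeR adjusted p = 0.11 and 0.14, and Itga1 and Ddr1, 0.12 and 0.14).

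For age in Fmn2+/+ mice, 2 of 40 collagen genes (5.0%) were called, both higher at 8 months, where 9.21% of 17046 genes were called and 5.37% called higher. At an unadjusted p under 0.05 there were 7 (17.5%, against 27.3% of genes). Col7a1, the anchoring fibril chain, was at 0.903, 0.927, 0.808, 0.665 and 0.983 CPM at 3 months and at 2.06, 1.02 and 2.25 at 8 months, with no overlap (log2 fold change 1.14 ± 0.35, edgeR adjusted p = 0.045). Col16a1, a FACIT chain, was at 7.91, 7.20, 5.17, 6.61 and 7.55 CPM and at 10.2, 7.01 and 11.9, overlapping through replicate 2 (log2 fold change 0.55 ± 0.17, edgeR adjusted p = 0.046). Col6a1 and Col5a2 had the next largest differences, 0.92 ± 0.34 and 0.77 ± 0.33, and were not called.

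Both calls sat at the edge of the threshold. DESeq2 called Col16a1 alone of 32 collagen genes with an adjusted p (against 14.0% of genes). By edgeR 0 were called with the near-identical 8-month Fmn2-/- libraries summed or with sequencing lane as a covariate. The same held with no filter on low counts and without the libraries rich in Ttr. Both stayed called without 3-month Fmn2-/- replicate 1 or 5, and leaving out any other single mouse but 8-month Fmn2+/+ replicate 2 lost at least 1. Without that replicate, 7 of 40 were called (17.5%; Col5a1, Col5a2, Col6a1, Col6a2, Col6a6, Col7a1 and Col16a1), beside 2994 of 17545 genes in all (17.1%). The median log2 fold change was 0.25 (31 higher, 9 lower), against 0.01 over all genes, and 0.10 without 8-month replicate 3. No lane held mice of both ages of 1 genotype, so lane and age cannot be told apart within a genotype.

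Type I and type III collagen had log2 fold changes with age near 0 and wide errors in these mice, 0.03 ± 0.56 for Col1a2 (edgeR adjusted p = 0.98) and 0.01 ± 0.75 for Col3a1 (edgeR adjusted p = 0.99). With the meningeal score as a covariate, chosen after seeing the data, both were called lower at 8 months, a change of sign. They were at -0.52 and -0.70 (edgeR adjusted p = 0.026 and 0.028). Under that setting 4 of 40 collagen genes were called (10%), against 12.4% of 17046 genes. P4hb (0.26 ± 0.06, edgeR adjusted p = 0.015) and Ppib (0.28 ± 0.08, edgeR adjusted p = 0.028), which serve collagen folding in the endoplasmic reticulum, rose with age, and Adamts3, a procollagen protease, fell (-0.80 ± 0.14, edgeR adjusted p = 0.0016). They were the 3 called of 28 processing genes. Of 9 degradation genes Timp4 rose (0.39 ± 0.10, edgeR adjusted p = 0.019), and Mmp16 and Timp3 fell (-0.32 ± 0.09 and -0.49 ± 0.14, edgeR adjusted p = 0.029 and 0.038). None of these 6 was called with lane as a covariate, and without 8-month Fmn2+/+ replicate 3 Adamts3 alone was. Of 26 alternatives, 12 kept the call of P4hb, which DESeq2 did not make. Those of Ppib, Mmp16 and Timp3 were kept under 20 each, that of Timp4 under 23 and that of Adamts3 under 25. None of 7 receptor genes was called.

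For age in Fmn2-/- mice, 1 of 40 collagen genes (2.5%) was called, against 6.44% of genes and 2.52% called higher. Col6a6, a type VI chain, was at 1.68, 1.41, 1.55, 1.17 and 1.55 CPM at 3 months and at 2.26, 1.98, 2.78, 2.38 and 1.56 at 8 months, the last within the younger range (log2 fold change 0.68 ± 0.20, edgeR adjusted p = 0.040). DESeq2 called it too (1 of 32 collagen genes with an adjusted p, against 8.67% of genes). The call was lost when 8-month replicates 2 and 3 were summed (edgeR adjusted p = 0.070), and also without 3-month replicate 2, 4, 5 or 6 or 8-month replicate 1, 2, 3 or 4. Lum, a proteoglycan on the meningeal list, was the 1 of its 14 markers called in the same mice (0.55, higher at 8 months). The median over collagen genes was -0.11 (13 higher, 27 lower), against -0.01 over all genes, but 0.19 with lane as a covariate and 0.02 without 3-month replicate 6, and 2 had an unadjusted p under 0.05 (5.0%, against 22.6%). None of 28 processing, 7 receptor and 9 degradation genes was called, and the smallest p were those of Loxl1 and P4ha3, Ddr1 and Lair1, and Timp4 and Mmp16. With lane as a covariate 0 collagen genes and 0 genes in all were called here, and 0 and 4 in Fmn2+/+ mice.

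The difference in age change between genotypes passed for no collagen gene. By edgeR 0 of 40 were called, against 3.73% of genes. DESeq2 called 0 of the 23 to which it gave an adjusted p, against 10.9% of genes. By edgeR 3 of the 40 had an unadjusted p under 0.05 (7.5%, against 22.9% of genes), Col7a1, Col9a3 and Col25a1. Their differences were -1.17 ± 0.48, -0.84 ± 0.38 and 0.24 ± 0.11 (edgeR adjusted p = 0.16, 0.19 and 0.20), and that of Col6a1 was -0.90 ± 0.47. The median was -0.34 (12 higher, 28 lower), against -0.02 over all genes, and -0.06 without 8-month Fmn2+/+ replicate 3. The 12 choroid plexus markers had a median of -2.13 here, with 0 called. Mmp16, a membrane-bound matrix metalloproteinase, was the 1 called of 9 degradation genes (0.49 ± 0.12, edgeR adjusted p = 0.032). Its call was kept under 13 of 26 alternatives. Among those where the call was lost were 8-month Fmn2-/- replicates 2 and 3 summed and lane as a covariate. None of 28 processing and 7 receptor genes was called, with P4hb and Adamts3 nearest (edgeR adjusted p = 0.052 for both) and Ddr1 at 0.097. These 3 age comparisons and both genotype comparisons share mice, so their values are not independent of each other.

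In the cross 0 of 39 collagen genes were called between the groups labelled Fmn2-/- APP and Fmn2+/+ APP (log2 fold change of 0.5 or more in either direction), against 0.774% of 16656 genes, and DESeq2 called 0, against 1.84%. At an unadjusted p under 0.05 there were 12 (30.8%, against 16.6% of genes), 9 of them lower in the group labelled Fmn2-/- APP. The median log2 fold change was -0.24 (11 higher, 28 lower), against 0.01 over all genes. Col8a2 and Col8a1 had the largest differences, -2.23 ± 0.78 and -2.19 ± 0.75 (edgeR adjusted p = 0.15 for both). Col8a2 was at 0.372, 1.22 and 2.79 CPM (lowest, median, highest of 7) in the group labelled Fmn2-/- APP and at 0.888, 1.94 and 29.5 (of 9) in the other, so the groups overlapped.

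The marker lists moved with these differences. The 10 choroid plexus genes tested were all lower at an unadjusted p under 0.05, 0 called, with a median log2 fold change of -3.12, and the summed list was at 53.2 to 125 CPM in the group labelled Fmn2-/- APP and at 49.2 to 9578 in the other. Without the 3 cross libraries over 300 CPM of Ttr, Col8a2, Col8a1 and Col9a3 had log2 fold changes of -0.21, -0.33 and -0.11. Meningeal markers were at 128 to 614 CPM (median 238) and at 244 to 672 (median 597), with 9 of 14 at an unadjusted p under 0.05 and 0 called. Col3a1 was at 0.903, 2.11 and 14.5 CPM and at 3.55, 10.6 and 19.1 (lowest, median, highest), with a log2 fold change of -1.27 ± 0.51 (edgeR adjusted p = 0.22) that became -0.43 with the meningeal score as a covariate. Col1a2 went from -0.65 ± 0.40 to 0.22 and Col1a1 from -0.63 ± 0.38 to 0.10. Without replicate 6 of the group labelled Fmn2-/- APP, its library with most type I collagen, Col1a1, Col3a1 and Col4a6 were called lower (7.5% of 40), beside 136 of 16747 genes in all (0.812%).

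Col25a1, Col4a1 and Col12a1 lay near 0 in the cross. Col25a1 was at 86.2, 122 and 180 CPM and at 92.5, 144 and 188 (log2 fold change -0.12 ± 0.17, edgeR adjusted p = 0.77). Col4a1 was at -0.03 ± 0.14 and Col12a1 at -0.09 ± 0.23. Col20a1, a FACIT chain, was 1 of 3 with an unadjusted p under 0.05 that were higher in the group labelled Fmn2-/- APP (0.48 ± 0.17, edgeR adjusted p = 0.15). None of the 28 processing, 7 receptor and 10 degradation genes was called. The smallest p in each list were those of P4ha2 and Plod2 (edgeR adjusted p = 0.071 and 0.084), Itgb1 and Itga10, and Timp4 and Mmp9.

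In the titled PFC mice 0 of 43 collagen genes were called between APP and wild type, against 2.34% of 16733 genes, and DESeq2 called 0, against 2.22%. At an unadjusted p under 0.05 there were 4 (9.3%, against 14.3%). The median was -0.00 (19 higher, 24 lower), as over all genes. Col26a1, a matrix collagen with an EMI domain, had an adjusted p under 0.05 but a fold below the threshold. It was at 5.93, 7.14 and 7.83 CPM in APP mice and at 7.88, 9.42 and 11.2 in wild-type mice (lowest, median, highest of 6), with no overlap (log2 fold change -0.42 ± 0.10, edgeR adjusted p = 0.021). Col1a2 was at 15.5, 22.2 and 26.2 CPM and at 10.5, 17.9 and 21.3 (0.31 ± 0.14, edgeR adjusted p = 0.32), beside a median log2 fold change of 0.34 for the 14 meningeal markers. The largest differences were those of Col6a5 (0.60 ± 0.29) and Col6a4 (-0.47 ± 0.34).

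Outside the chains themselves, Lox, the lysyl oxidase that cross-links collagen, was higher in APP mice (log2 fold change 1.37 ± 0.25, edgeR adjusted p = 0.0021), as was Lair1, a collagen receptor of immune cells (0.80 ± 0.09, edgeR adjusted p = 6.6e-06). They were 1 of 28 processing and 1 of 7 receptor genes tested, and none of 10 degradation genes was called (smallest p: Mmp2 and Ctsk). Microglial markers moved with Lair1, with 4 of 5 called higher in APP mice (C1qa by 1.33, Csf1r by 0.75, Cx3cr1 by 0.63 and P2ry12 by 0.53 on the log2 scale), as did Gfap, the 1 called of 5 astrocyte markers (2.10), and their part in the result was not tested. The wild-type libraries were all run on lane 5 and the APP libraries on lane 7, so lane and transgene cannot be told apart here.

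**Figure D4:**
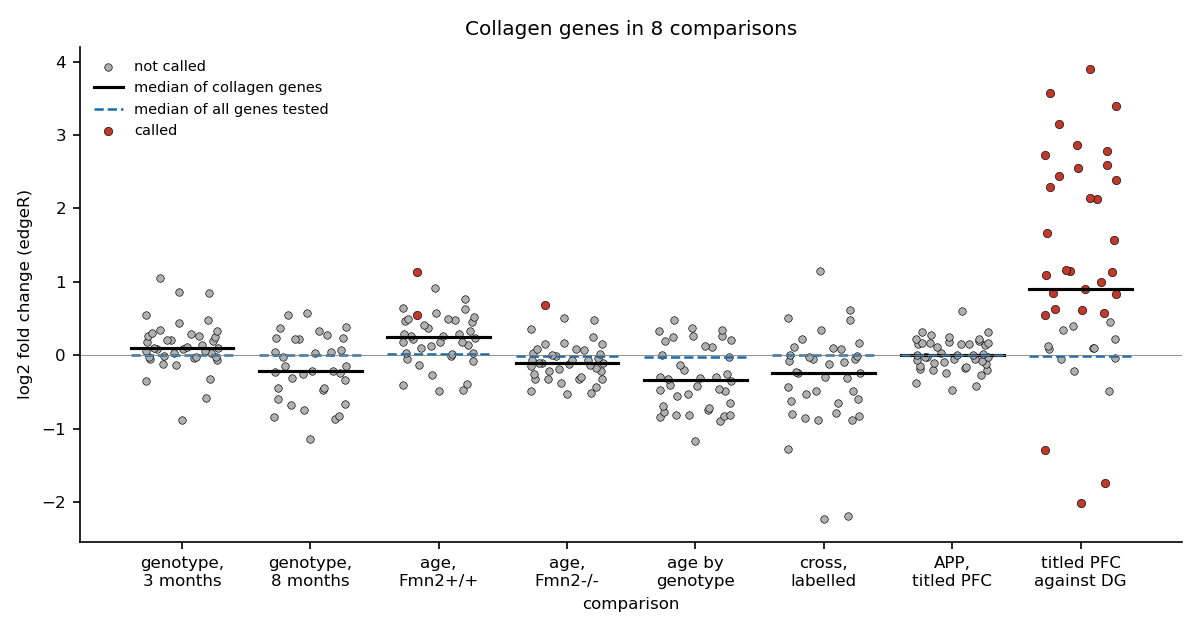
Log2 fold changes (vertical) of the collagen genes tested in each of 8 comparisons, 1 point a gene, red where called. Black bars are the median of collagen genes and dashed blue bars that of all genes tested. Called genes are 2 and 1 for age and 31 in titled PFC against DG, where the median is 0.90.

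The titled PFC and DG libraries differed in most collagen genes. Between titled PFC wild-type mice (6) and 3-month Fmn2+/+ DG mice (5), 31 of 43 tested were called (72.1%), 28 higher and 3 lower in titled PFC, where 45.1% of 16661 genes were called, 23.8% higher and 21.3% lower. DESeq2 called 30, against 36.9% of genes, and 32 had an unadjusted p under 0.05 (74.4%, against 76.4%). The median log2 fold change was 0.90, against -0.01 over all genes, and 0.58 once length and GC content were corrected for. Col2a1, Col17a1 and Col28a1, too low to be tested within the DG, entered only through the titled PFC libraries, where they are high. Without them 28 of 40 were called (70%), 25 higher and 3 lower, with a median of 0.84. Tissue, the labelled age (4 and 3 months) and experiment differ together and cannot be told apart. Both groups were run on lane 5, and the DG mice are those of the 3-month and age comparisons.

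Several type VI chains and the FACIT chains Col12a1 and Col16a1 had large differences. Col6a1 was at 26.4, 28.8, 21.8, 34.4 and 50.4 CPM in the DG mice and at 135, 174 and 216 in titled PFC mice (lowest, median, highest), with a log2 fold change of 2.44 ± 0.18 (edgeR adjusted p = 1.1e-08). Col6a2 and Col6a4 rose alike (2.78 ± 0.19 and 2.73 ± 0.24), as did Col6a3 by less (0.99 ± 0.15), while Col6a5 and Col6a6 fell (-2.01 ± 0.30 and -1.29 ± 0.22). The type VI chains thus split into 4 higher and 2 lower. Col7a1, of the same class, rose by 2.86 ± 0.16. Col12a1, a FACIT chain that coats fibrils, was at 8.53 to 13.9 CPM in the DG and at 43.9 to 58.1 in titled PFC mice (2.296 ± 0.11, edgeR adjusted p = 1.6e-10). Col16a1 rose by 2.38 ± 0.11 and Col19a1, made by some interneurons, by 0.84 ± 0.09. Of 9 FACIT chains 7 were called, all higher, where 23.8% of all genes were called higher.

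Fibrillar chains gave 7 calls of 11, all higher, where 23.8% of all genes were called higher. Among the 7 was Col2a1, which was tested only because it is high in the titled PFC libraries. Col5a1 was at 7.50 to 9.69 and at 36.3 to 59.2 CPM (2.55 ± 0.11), and Col24a1 at 0.140 to 1.38 and at 6.45 to 10.5 CPM (3.89 ± 0.30, the largest change of a collagen gene). Col1a2 and Col3a1 were not called (0.46 ± 0.22 and -0.49 ± 0.33, edgeR adjusted p = 0.071 and 0.18), and Col1a1 was (0.58 ± 0.24, edgeR adjusted p = 0.039). Meningeal markers were at 96.3 to 184 CPM in titled PFC and 195 to 363 in DG libraries, with 7 of 14 called lower (Lum, Ogn and Dcn among them) and 1 higher (Slc47a1). With the meningeal score as a covariate, chosen after seeing the data, Col3a1 turned to 0.73 and was called higher (edgeR adjusted p = 0.019). Under that setting 33 of 43 collagen genes were called (76.7%), against 41.9% of genes.

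In the basement membrane family Col4a1 was at 27 to 40.5 CPM in DG and 61.3 to 78.0 in titled PFC mice (1.10 ± 0.09, edgeR adjusted p = 7.2e-08), and Col4a2 at 27.3 to 39.9 and 88.3 to 116 (1.66 ± 0.09, edgeR adjusted p = 7.3e-10), both without overlap. Endothelial markers moved with them in part, with Kdr, Cldn5 and Esam called higher (the latter pair by 1.08 and 0.94) and Ly6c1 lower (-0.58) of 10 tested. Of the mural markers Notch3, Higd1b and Kcnj8 were called higher (the last 2 by 0.67 and 0.58) and Acta2, Tagln and Myh11 lower (-1.40, -1.19 and -0.87). Their part in the result was not tested. Col4a5 rose by 0.55 ± 0.15, and Col4a3, Col4a4 and Col4a6 were not called. The short-chain genes Col8a1 and Col8a2 were higher in titled PFC mice (1.15 ± 0.25 and 1.16 ± 0.32), while Ttr was at 3.69 to 33.0 CPM in the DG and at 0 to 2.18 in titled PFC libraries. Col15a1, a multiplexin, rose by 2.14 ± 0.18, and Col18a1, the source of endostatin, was not called (0.23 ± 0.13, edgeR adjusted p = 0.12).

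Col25a1 went the other way. It was at 186, 225, 192, 190 and 224 CPM in DG mice and at 51.8, 62.1 and 64.6 (lowest, median, highest) in titled PFC mice, a log2 fold change of -1.74 ± 0.07 (edgeR adjusted p = 2.8e-11, the smallest of any collagen gene). Of the other transmembrane chains Col17a1 rose by 3.40 ± 0.42 from 0.0702 to 0.399 CPM in the DG, and Col23a1 and Col13a1 were not called. Col28a1 and Col2a1, each at up to 0.355 CPM in the DG libraries, were also higher (3.58 ± 0.38 and 3.15 ± 0.34), from few counts. All 3 passed the filter on low counts only through the group where they are high, so a difference had to follow.

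Of the collagen processing genes 12 of 28 were called, 7 higher and 5 lower in titled PFC mice. Over all genes tested 45.1% were called, 23.8% higher and 21.3% lower. Tll2 (2.64 ± 0.30), a procollagen protease, rose, as did P3h3 (1.08 ± 0.10), Bmp1 (0.99 ± 0.11), P4ha2, P3h1, Colgalt2 and Adamts2, while Loxl1 (-2.13 ± 0.19), Tll1 (-1.30 ± 0.19), Adamts14, Plod2 and Adamts3 fell. Of 7 receptor genes Itga10 rose (2.21 ± 0.14) and Itga11 fell (-0.72 ± 0.15), and of 9 degradation genes Ctsk rose (0.84 ± 0.18) while Mmp16 and Timp3 fell (-0.59 ± 0.07 and -0.51 ± 0.07). The call of Timp3 was kept under 9 of 16 alternatives.

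**Figure D5:**
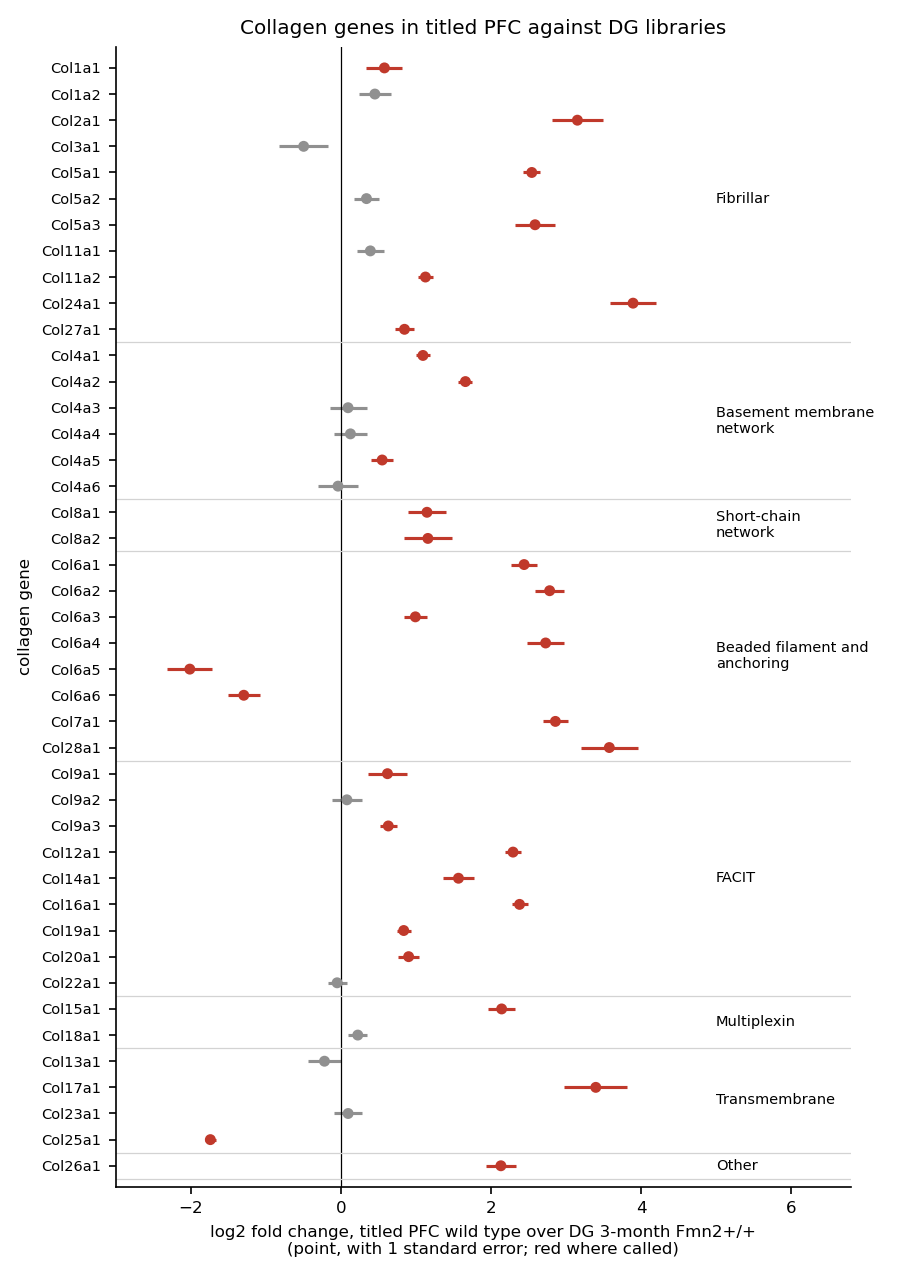
Log2 fold change of 43 collagen genes, by class, in titled PFC wild-type mice (6) over 3-month Fmn2+/+ DG mice (5), with 1 standard error, red where called. Points right of 0 are higher in titled PFC, as for Col6a1 at 2.44, and among called genes Col25a1, Col6a5 and Col6a6 lie left of 0.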

How the data were processed

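RNA extracted with TRIZOL from whole tissue was made into libraries with the TruSeq RNA v2 kit. The authors aligned reads with STAR to mm10 and counted them per gene with HTSeq, and the deposited values are whole-number counts per Ensembl gene. The annotation and the strand setting of the counting are not given in the sources used here. Runs of 1 mouse were summed. Genes were named, and exon lengths and GC content taken, from GENCODE M21. edgeR 4.0.16 (quasi-likelihood test, TMM, filterByExpr) was fitted to all genes of each comparison, and a gene was called at an adjusted p under 0.05 with a log2 fold change of 0.25 (DG) or 0.5 (cross, titled PFC) or more in either direction. The age comparisons shared 1 fit over 4 groups. For relations across mice, log2(CPM + 0.5) after TMM over 46 libraries was used.

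Total counts per mouse were 6818809 to 43921030. Alternatives were DESeq2 1.42.0, median-ratio size factors, no filter on low counts, a length and GC correction, a replicate block, lane as a covariate, each mouse left out, 8-month Fmn2-/- replicates 2 and 3 summed and the lane 7 run alone for mice with 2 runs. Leaving out libraries over 300 CPM of Ttr and a meningeal score as covariate were added after seeing the data. The rule named 13 collagens always, all called collagens (beyond 12, the 12 of smallest p), the 3 of largest change per comparison, the 10 genes most like Col1a2 and Col4a1, and called genes of the processing, receptor and degradation lists, or otherwise their 2 of smallest p. Collagens outside the rule were named after their values were seen. The members and lists were chosen with earlier results of these data known. Replicate numbers did not pair mice. The fit was tested on simulated data with known fold changes. The labels do not say whether mice shared litters, so p-values measure the spread between these mice.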

Additional observations from a re-analysis of the deposited data

Results flagged for a closer look

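Of 147 sets of values (21 collagen genes in 7 groups of 4 to 10 mice), 15 passed Dixon's critical value. In each, the gap from the highest library to the next, over the range of the group, was above that value. Chance gives about 1 in 20 for sets chosen without their values. Here the 21 were the 13 always named and others taken from the results above, so that share is no measure for the 15. In the group labelled Fmn2-/- APP, replicate 6 had 19.16 CPM of Col1a1 (others 2.71 to 6.00), 52.1 of Col1a2 (6.61 to 19.4) and 14.54 of Col3a1 (0.903 to 5.86). Replicate 1 of that group had 20.29 CPM of Col5a1 (4.97 to 10.3) and 23.79 of Col23a1 (9.37 to 15.4), and replicate 7 had 4.583 of Col26a1 (1.6 to 2.81).

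In 3-month Fmn2-/- replicate 4 Col8a1 was at 6.784 CPM (others 0.585 to 2.14), Col8a2 at 5.343 (0.444 to 1.29) and Col9a3 at 24.22 (8.36 to 11.5). In the group labelled Fmn2+/+ APP, replicate 4 had 25.81 CPM of Col8a1 (1.13 to 11.5) and 29.46 of Col8a2 (0.888 to 11.8). Both libraries were among the 3 with most Ttr. Replicate 9 of the latter group had 25.37 CPM of Col16a1 (6.98 to 14.5) and 11.57 of Col18a1 (4.30 to 6.88). Col18a1 was at 6.99 CPM in 8-month Fmn2-/- replicate 4 (3.08 to 3.64), and Col8a1 at 3.613 in titled PFC wild-type replicate 3 (2.28 to 2.67).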

How the results depend on the processing

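Of 3278 values of single genes under alternatives, 3000 kept their direction and side of the threshold or moved within the spread. A further 120 moved by more, 128 lost and 27 gained a call. The last 3 changed sign and were called under the main or the other setting, all with the meningeal score as a covariate. They were Col1a2 (-0.52) and Col3a1 (-0.70) for age in Fmn2+/+ mice and Col3a1 (0.73) in titled PFC against DG. Changes of sign in genes called under neither setting were counted as moved or as within the spread. The cause of changes under a setting was not tested. At 3 months (5 genes called in all), DESeq2 called 96, no filter 14, median-ratio factors, the length and GC correction, the lane covariate, libraries over 300 CPM of Ttr left out and the meningeal covariate 3 each (leaving out 1 mouse 3 to 49, collagen genes 0 to 0, their median 0.02 to 0.21). At 8 months (166), DESeq2 called 672, no filter 1124 (5 collagen genes), the length and GC correction 34, lane 3, replicates summed 5, Ttr 4 and the meningeal covariate 2109 (8 collagen genes), and leaving out 1 mouse gave 4 to 3087, 0 to 9 collagen genes and medians of -0.27 to -0.03. For age in Fmn2+/+ mice (1570, collagen 2), collagen calls were 1 by DESeq2 and median-ratio factors, 4 with the meningeal covariate and 0 with no filter, length and GC, lane, summed replicates or Ttr (1 mouse left out 0 to 7, median 0.10 to 0.43), and all calls 856 with length and GC and 4 with lane (469 to 2994). For age in Fmn2-/- mice (1097, collagen 1), collagen calls were 0 with no filter, lane, summed replicates or Ttr (0 to 1), all calls 547 with length and GC, 0 with lane and 386 for Ttr (746 to 1239), and the collagen median was 0.19 with lane (-0.20 to 0.02). For age by genotype (635), DESeq2 called 1398, no filter 399, length and GC 25, lane 1, summed 227, Ttr 24 and the meningeal covariate 1978 (8 to 2791, collagen 0 to 1, median -0.48 to -0.06). In the cross (129), DESeq2 called 356, Ttr 52 and the meningeal covariate 47 (73 to 171, collagen 0 to 3, median -0.33 to -0.15). In titled PFC mice leaving out 1 gave 365 to 418 calls, 0 collagen genes and medians of -0.07 to 0.02. In titled PFC against DG the length and GC correction gave a median of 0.58, with 26 collagen and 6792 calls in all. Leaving out 1 mouse gave medians of 0.85 to 0.995, with 28 to 32 collagen and 7199 to 7637 calls in all. Without the 2 farthest mice, r of Col4a1 with the mural list was 0.54 in the 3- and 8-month experiment and, in the cross, that of Col9a3 was 0.72 with the choroid plexus list and -0.54 with the mural list.

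With replicate number as a block, 0 collagen genes were called at 3 months, 8 months, in the cross and in titled PFC mice, with 2, 4, 111 and 383 genes in all and collagen medians of -0.11, -0.15, -0.35 and -0.02. The numbers do not pair mice: deviations of mice with 1 number correlated above 0.1 in 1 of 4, 0 of 3, 3 of 7 and 2 of 6 pairs.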
